A study of Mus musculus with 3 samples.

Results

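The Cyp3a genes encode cytochrome P450 enzymes of the smooth endoplasmic reticulum that oxidise drugs, steroids and bile acids. 4 of the 9 Cyp3a symbols in the feature lists were described: Cyp3a11, Cyp3a25, Cyp3a13 and Cyp3a59. They were taken by symbol from a table of 32285 features, in barcodes with at least 200 detected genes and at most 50% mitochondrially encoded counts. The members were selected on measured levels of these same libraries, among them the difference of Cyp3a11 between HFD and ND, so their levels and ratios are descriptions and carry no test.

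The cells were primary hepatocytes of wild-type mice, isolated by collagenase perfusion after 12 weeks of diet. HFD_HDCA mice ate a 60% high fat diet containing 0.25% of the bile acid hyodeoxycholic acid, HFD mice ate the 60% high fat diet alone, and ND mice ate a normal diet. Each group was a single droplet library with a 3′ chemistry that counts unique molecular identifiers (UMIs), so no replicate spread exists, no p-value was computed, and all 95% intervals cover counting error only. No source used here gives how many mice made up a library, their sex or age, or the hour of isolation.

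In mice, Cyp3a11 is the main hepatic member of the family and is commonly treated as the counterpart of human CYP3A4. Its transcription is known to be raised by the pregnane X receptor PXR (Nr1i2) and the constitutive androstane receptor CAR (Nr1i3), which bind DNA as partners of retinoid X receptors. PXR is activated by foreign compounds and by some bile acids, and Cyp3a enzymes hydroxylate bile acids in turn. In humans, CYP3A4 can form hyodeoxycholic acid from lithocholic acid. Most liver P450 enzymes are more abundant in pericentral hepatocytes, which surround the central vein, than in periportal hepatocytes at the inflow side of the lobule.

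All 4 genes lie on mouse chromosome 5 in GENCODE release M21 coordinates of the mm10 assembly. Cyp3a11 (ENSMUSG00000056035) spans chr5:145854426-145879964, Cyp3a25 (ENSMUSG00000029630) spans chr5:145977194-146009618, and Cyp3a13 (ENSMUSG00000029727) spans chr5:137892932-137921619, all on the minus strand. Cyp3a59 (ENSMUSG00000061292) spans chr5:146079257-146113287 on the plus strand and is the family member nearest to Cyp3a25. Cyp3a13 lies apart from the other 8 Cyp3a genes, which sit together between 145345279 and 146113287. The RefSeq promoter table (GRCm38.p6) held an entry for each of the 4 genes. The bases upstream of their starts are shown so that the members can be compared, and nothing measured here ties their letters to the levels. They are written 5′ to 3′ on the strand of the gene, cut where a GENCODE exon begins, with nuclear receptor motif matches in capitals.
Cyp3a11, chr5:145879965-145880104, minus strand: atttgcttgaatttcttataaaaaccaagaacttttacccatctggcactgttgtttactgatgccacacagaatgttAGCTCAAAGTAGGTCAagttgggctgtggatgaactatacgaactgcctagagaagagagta
Cyp3a25, chr5:146009619-146009868, minus strand: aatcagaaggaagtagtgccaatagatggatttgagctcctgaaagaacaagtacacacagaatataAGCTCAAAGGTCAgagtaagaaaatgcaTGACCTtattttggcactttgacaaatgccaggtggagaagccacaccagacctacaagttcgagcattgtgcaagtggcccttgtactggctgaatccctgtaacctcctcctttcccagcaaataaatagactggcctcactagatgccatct
Cyp3a59, chr5:146079008-146079256, plus strand: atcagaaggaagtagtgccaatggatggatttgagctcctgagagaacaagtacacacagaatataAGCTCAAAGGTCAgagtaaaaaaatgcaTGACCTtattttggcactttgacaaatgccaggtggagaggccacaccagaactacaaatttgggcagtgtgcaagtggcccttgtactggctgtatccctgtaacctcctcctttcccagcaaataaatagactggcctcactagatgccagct
Cyp3a13, chr5:137921620-137921869, minus strand: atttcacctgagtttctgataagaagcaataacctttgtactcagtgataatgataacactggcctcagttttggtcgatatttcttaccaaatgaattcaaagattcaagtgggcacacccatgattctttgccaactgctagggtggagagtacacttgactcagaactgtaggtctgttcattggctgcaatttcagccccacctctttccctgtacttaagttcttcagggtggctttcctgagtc

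The capitals mark matches, on either strand, to the nuclear receptor half-site AGGTCA and to the spaced pairs DR1 (AGNTCANAGGTCA) and DR4 (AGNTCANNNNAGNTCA). Matches of the single half-site that lie inside a pair were counted for both. In the 250 bases upstream of the RefSeq start, the half-site was present for Cyp3a11, Cyp3a25 and Cyp3a59 and had no match for Cyp3a13, while 13.8% of 27025 promoters of all genes held it. It was also present for Cyp3a57 and Cyp3a44, which had 0 and 2 counts in all libraries together, so 5 of the 9 family promoters held it. Cyp3a11 had the DR4 pair from base -172 to -157, a spacing found in 0.111% of all promoters. Cyp3a25, Cyp3a59 and Cyp3a57 had the DR1 pair, found in 0.0740% of all promoters. A 9-base core motif of HNF4A was found in 0.381% of all promoters. It matched Cyp3a11 from base -109 to -101, inside the GENCODE exon and so outside the printed stretch. Cyp3a16, Cyp3a41a and Cyp3a41b also had a match. The DR3 pair (AGNTCANNNAGNTCA) and the ER6 pair (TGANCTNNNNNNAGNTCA) had no match in any of the 4 windows and occurred in 0.0555% and 0.0370% of all promoters. A match is a run of letters, not a measured binding site.

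The promoters of Cyp3a25 and Cyp3a59 were 94.8% identical over the 250 bases upstream of their RefSeq starts. The values were 55.6% for Cyp3a11 and Cyp3a25 and 57.2% for Cyp3a11 and Cyp3a13. For Cyp3a11, 110 of these bases lie in a GENCODE exon. The coding sequences of Cyp3a25 and Cyp3a59 were 97.5% identical and the last 300 bases of their transcripts, the part a 3′ library reads, were 94.4% identical. Some reads of this pair may therefore not have been told apart. The counts of both genes, above all the low Cyp3a59 counts, are uncertain to that extent. Over the last 300 bases, Cyp3a11 was between 46.8% and 55.6% identical to each of the other 8 genes, although its coding sequence was 95.2% identical to that of Cyp3a41a. Cyp3a41a and Cyp3a41b were 100% identical over the last 300 bases, so reads from those ends cannot be told apart.

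After filtering, 3000 HFD_HDCA, 2898 HFD and 2776 ND barcodes were retained, with median depths of 1116.5, 868 and 944.5 UMIs. Before filtering, the median mitochondrial share was 14.5% in HFD_HDCA, 63.1% in HFD and 61.1% in ND barcodes, so HFD_HDCA stood apart in this measure. Hepatocyte-like clusters held 97.4%, 97.9% and 95.5% of the retained barcodes of HFD_HDCA, HFD and ND, and all 19 hepatocyte markers were detected in each library. The name was the default of clusters that no other class led, and cells of different libraries mostly fell into different clusters. Cyp3a11 itself was among the leading genes of 4 clusters made up mainly of ND cells. Endothelial-like cells numbered 34, 18 and 95, and the summed level of 18 endothelial markers was 168, 109 and 674 CPM (counts per 1000000) in HFD_HDCA, HFD and ND, so it moved with the ND library. Between 1 and 5 retained barcode sequences were shared by a pair of libraries, and leaving them out changed no direction of a member. Levels below are CPM of nuclear-encoded counts, and since each 3′ end is counted once they were not scaled by transcript length.

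Cyp3a11, Cyp3a25 and Cyp3a59 were low in both high fat libraries and high in the ND library, while Cyp3a13 was not. Cyp3a11 stood at 179 CPM in HFD_HDCA (1037 counts), 107 CPM in HFD (399 counts) and 4490 CPM in ND (19192 counts). The intervals were 168 to 190, 96.6 to 118 and 4426 to 4554 CPM, so no pair of libraries overlapped. Cyp3a11 was the 24th most abundant transcript in ND and ranked 872 in HFD_HDCA and 1385 in HFD. Cyp3a25, a steroid hydroxylase of mouse liver, had 446 CPM in HFD_HDCA, 491 CPM in HFD and 1210 CPM in ND. The intervals were 429 to 463, 468 to 514 and 1177 to 1243 CPM, so the 2 high fat libraries lay close together and both stood more than 2-fold under ND. Cyp3a59 had 5.52 CPM in HFD_HDCA, 9.91 CPM in HFD and 45.9 CPM in ND, from 32, 37 and 196 counts. The HFD_HDCA interval (3.78 to 7.80 CPM) and the HFD interval (6.98 to 13.7 CPM) overlapped, and both lay under the ND interval (39.7 to 52.7 CPM). Cyp3a13, which mice express in liver and intestine, had 169 CPM in HFD_HDCA, 154 CPM in HFD and 119 CPM in ND. Its HFD_HDCA interval (159 to 180 CPM) and HFD interval (142 to 168 CPM) overlapped and both lay above that of ND (109 to 130 CPM).

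**Figure D1:**
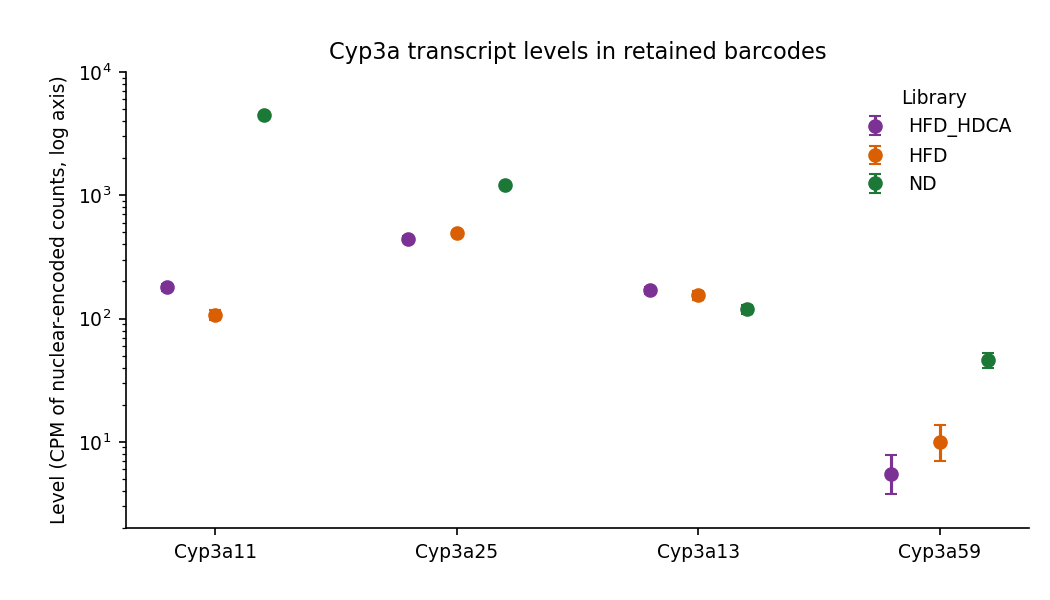
Level of each Cyp3a gene (CPM, log axis) in the retained barcodes of the HFD_HDCA, HFD and ND libraries, 1 point per library with its 95% Poisson interval. Cyp3a11 shows the widest spread of the 4 genes, from 107 CPM in HFD to 4490 CPM in ND, and Cyp3a13 the narrowest, between 119 and 169 CPM.

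The first comparison asked how the high fat diet library differed from the normal diet library. The log2 ratio of HFD over ND was -5.39 for Cyp3a11 (interval -5.54 to -5.25), a 42.0-fold lower level and the second lowest of 7855 measured genes. Cyp3a59 was 4.58-fold lower (log2 ratio -2.19, interval -2.76 to -1.70) and Cyp3a25 was 2.47-fold lower (-1.30, interval -1.38 to -1.23). Cyp3a13 was higher by 0.38 (interval 0.20 to 0.55), short of 2-fold. Thus 3 of the 4 genes were at least 2-fold lower and 0 were at least 2-fold higher, against 3.53% lower and 2.85% higher among all measured genes. These ratios were known when the family was chosen, and the counts describe it only. All measured genes together had a median log2 ratio of -0.06.

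The second comparison asked what hyodeoxycholic acid on top of the high fat diet went with. Of the 4 genes, 0 reached 2-fold in either direction for HFD_HDCA over HFD, against 1.63% higher and 1.48% lower among all measured genes. Cyp3a11 was 1.67-fold higher (log2 ratio 0.74, interval 0.58 to 0.91), and 307 of 7855 genes had a higher ratio. Weighting each cell equally, whatever its depth, gave 1.17, past the 2-fold line. Cyp3a59 was 1.79-fold lower (-0.84, interval -1.57 to -0.12), and -1.13 after thinning all cells to 500 UMIs. The thinned value rests on only 7 HFD_HDCA and 11 HFD UMIs. Cyp3a25 differed by -0.14 (interval -0.23 to -0.05), or 0.05 after thinning, and Cyp3a13 by 0.13 (interval -0.02 to 0.28). The median mitochondrial share of all barcodes, 14.5% in HFD_HDCA and 63.1% in HFD, also differed between these libraries. In the retained barcodes, from which the ratios come, it was 7.42% and 12.9%. The Cyp3a11 ratio was 0.80 with at most 20% mitochondrially encoded counts and 0.73 with no limit on them. The part of cell damage in the ratios was not tested. Against ND, the HFD_HDCA level of Cyp3a11 was 25.1-fold lower (log2 ratio -4.65, interval -4.74 to -4.56). HFD_HDCA over ND was -1.44 for Cyp3a25, -3.04 for Cyp3a59 and 0.51 for Cyp3a13, and 3 of the 4 were at least 2-fold lower and 0 higher, against 2.97% lower and 2.62% higher among all measured genes. Each pair of these 3 comparisons shares a library, so the comparisons are not independent.

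The make-up of the family transcript pool differed with these levels. The 4 genes together had 800 CPM in HFD_HDCA, 762 CPM in HFD and 5864 CPM in ND. Cyp3a11 gave 22.4% of the pool in HFD_HDCA, 14.0% in HFD and 76.6% in ND. Cyp3a25 was the most counted member in both high fat libraries, with 55.7% in HFD_HDCA and 64.4% in HFD, against 20.6% in ND. Cyp3a13 gave 21.2%, 20.3% and 2.03% in the same order of libraries. In ND the pool was thus mainly Cyp3a11, and in the high fat libraries mainly Cyp3a25. Of the other 5 Cyp3a genes, Cyp3a44 had 2 counts in ND and 0 in the high fat libraries. Cyp3a57, Cyp3a16, Cyp3a41a and Cyp3a41b had 0 counts in every library, which allows up to 0.518 CPM in HFD_HDCA, 0.803 CPM in HFD and 0.702 CPM in ND for a transcript that can be counted.

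Cyp3a11 was also low in both high fat libraries within subsets of barcodes. In hepatocyte-like cells alone Cyp3a11 had 181 CPM in HFD_HDCA, 108 CPM in HFD and 4559 CPM in ND, and the log2 ratio of HFD over ND was -5.40. The ratio was as low without the endothelial-like cells as with them. Split by depth, that ratio was -6.50 in hepatocyte-like cells under 1000 UMIs, -5.25 from 1000 to under 3000 UMIs and -5.08 at 3000 UMIs or more. The HFD_HDCA over HFD ratio was 1.92, 0.68 and 0.43 in these 3 depth classes. Its direction was the same in each class and it was highest among shallow cells.

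At equal depth, the share of cells with a Cyp3a11 UMI followed the levels. Each cell was thinned to 500 UMIs, which left out shallower cells and kept 2821 HFD_HDCA, 1973 HFD and 2437 ND cells. Cyp3a11 had at least 1 UMI in 8.44% of HFD_HDCA cells (interval 7.44 to 9.52%), 3.55% of HFD cells (2.78 to 4.46%) and 82.8% of ND cells (81.2 to 84.2%). Without thinning, the shares were 17.1% in HFD_HDCA, 5.80% in HFD and 94.4% in ND. Cyp3a25 was seen in 21.1%, 20.6% and 45.9% of thinned HFD_HDCA, HFD and ND cells, against 45.4%, 38.4% and 67.6% without thinning. Cyp3a13 was seen in 7.02%, 6.94% and 5.17%, and Cyp3a59 in 0.248%, 0.558% and 2.34%. Unthinned, Cyp3a13 was in 23.5%, 16.5% and 14.9% of cells and Cyp3a59 in 1.0%, 1.24% and 6.16%.

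Cyp3a11 UMIs were also seen in the other cell classes of ND. Endothelial cells are not known as a main site of Cyp3a11, yet 58 of 86 thinned endothelial-like ND cells had a Cyp3a11 UMI (67.4%, interval 56.5 to 77.2%), at a median unthinned depth of 1036 UMIs against 1084 UMIs in hepatocyte-like ND cells. Their Cyp3a11 level was 2166 CPM, and that of 17 Kupffer-like ND cells, the liver macrophages, was 1762 CPM. The hepatocyte-like level of 4559 CPM was above both, and the hepatocyte-like share of 83.5% (interval 82 to 85.0%) lay above the endothelial-like interval. For Cyp3a59, the ND share was 2.33% in endothelial-like cells (2 of 86, interval 0.283 to 8.15%) and 2.37% in hepatocyte-like cells, and 86 cells are too few to tell these shares apart. Endothelial-like cells had 0 Cyp3a11 counts in HFD_HDCA and in HFD, which allows up to 97.8 and 265 CPM. Alb, the albumin transcript that only hepatocytes make, was also in these cells, at 14839 CPM in endothelial-like and 55955 CPM in hepatocyte-like ND cells. Per 1000 Alb counts, Cyp3a11 numbered 146 (interval 127 to 167) in endothelial-like ND cells and 81.5 (80.3 to 82.6) in hepatocyte-like ND cells. The ratio of the 2 transcripts also differed with depth among hepatocyte-like ND cells. Those under 1000 UMIs had 4986 Cyp3a11 and 34929 Alb counts, and those of 3000 UMIs or more had 9667 and 143472. Endothelial-like ND cells had 206 and 1411. The 2 transcripts were thus not in 1 fixed ratio within or between these classes. The part of free RNA and of doublets, which were not removed, in the endothelial-like and Kupffer-like counts was not tested. For Cyp3a25, the thinned share was 17.4% in endothelial-like and 47.4% in hepatocyte-like ND cells, and for Cyp3a13 it was 2.33% and 5.29%.

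**Figure D2:**
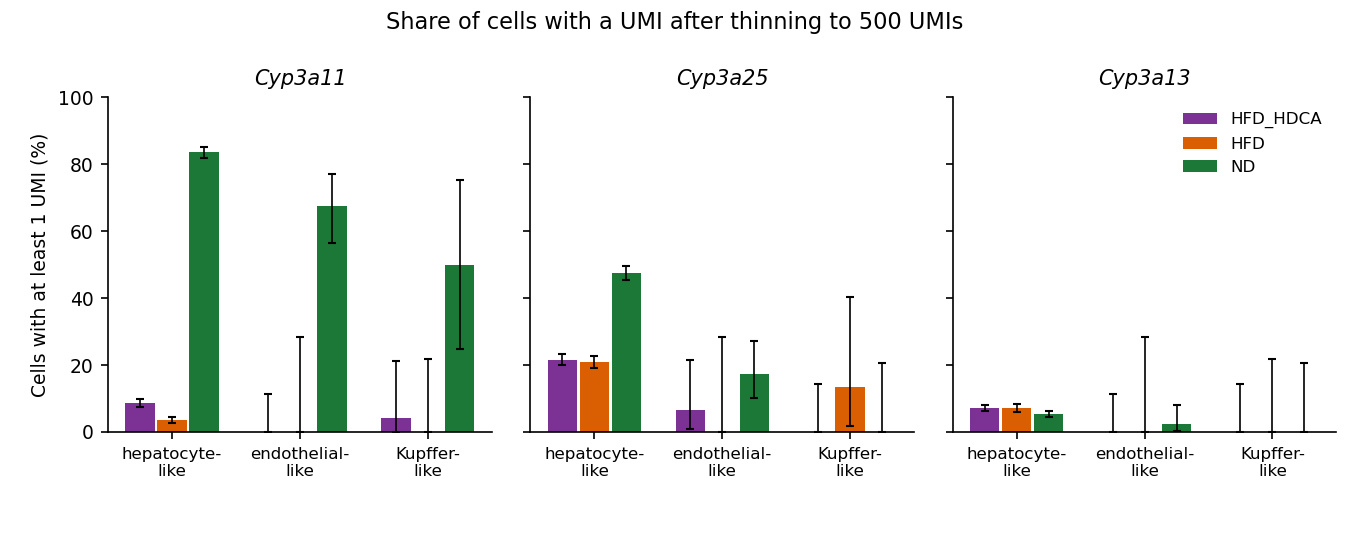
Share of cells with at least 1 UMI (%) of Cyp3a11, Cyp3a25 and Cyp3a13 after thinning each cell to 500 UMIs, by cell class and library, with exact binomial 95% intervals. In ND, 83.5% of hepatocyte-like and 67.4% of endothelial-like cells had a Cyp3a11 UMI. Of the endothelial-like cells, 0 of 31 in HFD_HDCA and 0 of 11 in HFD did, with intervals up to 11.2% and 28.5%.

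The remaining Cyp3a11 transcripts of the HFD library were held by few cells. Of 2898 HFD cells, 168 had any Cyp3a11 UMI, and the 29 cells with the most held 50.6% of all 399 UMIs, up to 26 in 1 cell. In HFD_HDCA, 512 of 3000 cells had a UMI and the top 30 cells held 28.7% of them. In ND, 2620 of 2776 cells had a UMI and the top 28 cells held 7.41%. Cyp3a25 was spread more evenly, with 8.87% of its UMIs in the top 30 HFD_HDCA cells, 8.68% in the top 29 HFD cells and 6.48% in the top 28 ND cells. The ratio of variance to mean at 500 UMIs, which is 1 for evenly scattered counts, was 1.13 for Cyp3a11 in HFD_HDCA, 1.66 in HFD and 1.71 in ND. For Cyp3a13 it lay between 0.964 and 1.01 in the 3 libraries.

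Cells were placed along the lobule to locate these transcripts. Hepatocyte-like cells with at least 10 landmark UMIs were ranked within their library by the pericentral part of 8 pericentral and 10 periportal landmark transcripts, none of them a Cyp3a gene, and split into 3 zones of about equal cell number, called periportal, middle and pericentral. Genes held out of the score followed the ranking, with all pericentral genes that had at least 20 counts (6 in HFD_HDCA, 4 in HFD and 5 in ND, of 7 listed) and all 7 periportal genes on their own side. The zones are ranks within a library and their scores differed, with a median of 0.691 in the pericentral zone of HFD_HDCA, 0.630 in HFD and 0.395 in ND. The landmark Cyp2e1 itself was 3.38-fold higher in HFD than in ND, and the main ratio below is therefore also given from a ranking without P450 landmarks.

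Cyp3a11 was concentrated near the central vein in both high fat libraries and leaned to that side far less steeply in ND. In HFD_HDCA it had 18.6 CPM in the periportal zone, 146 CPM in the middle and 451 CPM in the pericentral zone. HFD had 3.49 CPM (5 counts), 50.9 CPM and 299 CPM from the periportal to the pericentral zone. ND had 3784, 3796 and 5905 CPM. Every zone of the ND library was thus above the highest zone of either high fat library. The pericentral zone was 24.0-fold above the periportal zone in HFD_HDCA (log2 ratio 4.59, interval 4.18 to 5.05), 78.0-fold in HFD (6.29, interval 5.18 to 8.05) and 1.56-fold in ND (0.64, interval 0.59 to 0.70). Without P450 landmarks the log2 ratio was 5.09 in HFD_HDCA, 6.18 in HFD and 0.43 in ND. With the score limits of the ND cells applied to all libraries it was 6.17, 5.12 and 0.64, so whether HFD_HDCA or HFD was the steeper depended on the ranking, and both were steeper than ND in each. Ranked among genes with at least 50 counts in these outer zones, Cyp3a11 came 12th of 6427 in HFD_HDCA, 4th of 4845 in HFD and 537th of 4869 in ND. At least 2-fold pericentral ratios were held by 3.02%, 3.78% and 3.29% of those genes. The endothelial-like level of ND, 2166 CPM, was under that of every ND zone, and the part of free RNA in the shallow ND profile was not tested.

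The difference between HFD and ND was largest at the periportal end. Cyp3a11 was 985-fold lower in HFD than in ND in the periportal zone (log2 ratio -9.94, interval -11.7 to -8.86), 73.7-fold lower in the middle zone (-6.20) and 19.7-fold lower in the pericentral zone (-4.30, interval -4.47 to -4.14). At least 2-fold lower levels were seen in 2.28%, 2.40% and 3.27% of the genes measured in these zones. HFD_HDCA over HFD was 2.29 in the periportal (interval 1.09 to 4.10), 1.5 in the middle (1.02 to 2.04) and 0.59 in the pericentral zone (0.40 to 0.78). At least 2-fold higher levels in HFD_HDCA were seen in 1.43%, 1.54% and 1.89% of those genes. The periportal value rests on 49 HFD_HDCA and 5 HFD counts. The periportal zone ran up to a score of 0.333 in HFD_HDCA, 0.16 in HFD and 0.018 in ND. Zones of the same name are therefore not the same place in the lobule, and the ratios between libraries carry this limit. Division into 5 ranked groups gave Cyp3a11 levels of 6.92, 73.9, 148, 185 and 574 CPM from the periportal to the pericentral end of HFD_HDCA. HFD had 4.13, 8.12, 54.2, 44.3 and 436 CPM, so its highest level was in the last group.

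**Figure D3:**
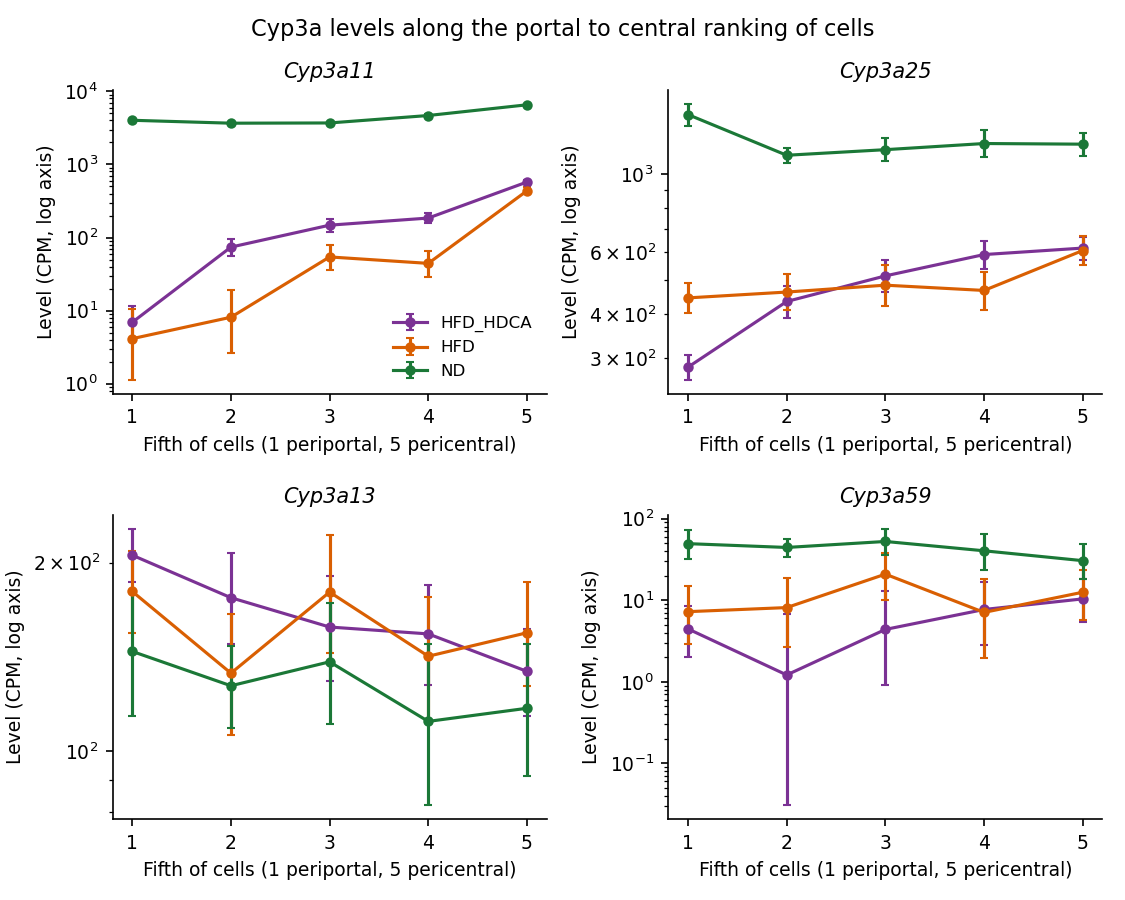
Level of each Cyp3a gene (CPM, log axis) in 5 groups of hepatocyte-like cells ranked from periportal (1) to pericentral (5), per library, with 95% Poisson intervals. Cyp3a11 reaches 574 CPM in HFD_HDCA and 436 CPM in HFD in the last group, and in ND that group, at 6536 CPM, is the highest.

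The pericentral zone held 78.4% of the ranked Cyp3a11 UMIs in HFD_HDCA, 87.4% in HFD and 34.6% in ND, and 31.2%, 32.6% and 25.3% of all nuclear-encoded counts of the ranked cells. Thinned to 500 UMIs, 15.9% of pericentral HFD_HDCA cells, 8.11% of pericentral HFD cells and 88.7% of pericentral ND cells had a Cyp3a11 UMI. In the periportal zone the shares were 2.09%, 0.156% (1 of 640 cells) and 74.0%. Periportal cells were deeper before thinning, with median nuclear-encoded counts of 3310.5 in HFD_HDCA, 2311 in HFD and 2701.5 in ND, against 1201, 1169 and 1043 in the pericentral zone, and the order of the shares at equal depth was that of the levels. Cells with at least 2 UMIs of Glul, glutamine synthetase of the hepatocytes next to the central vein and itself 1 of the landmarks, carried still more. Their Cyp3a11 level was 1103 CPM in 57 HFD_HDCA cells, 1200 CPM in 44 HFD cells and 8705 CPM in 26 ND cells, with intervals of 958 to 1264, 999 to 1429 and 7888 to 9583 CPM. The HFD_HDCA and HFD intervals overlapped in these cells. Cells without a Glul UMI had 139, 68.5 and 4493 CPM, a 7.92-fold, 17.5-fold and 1.94-fold lower level than in the Glul cells of HFD_HDCA, HFD and ND.

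The other members had shallower lobule profiles. Cyp3a25 had 311, 541 and 603 CPM from the periportal to the pericentral zone of HFD_HDCA, 435, 515 and 552 CPM in HFD, and 1257, 1160 and 1203 CPM in ND. Its pericentral over periportal log2 ratio was 0.96 (interval 0.82 to 1.09) in HFD_HDCA, 0.34 (0.18 to 0.51) in HFD and -0.06 (-0.17 to 0.05) in ND. The HFD_HDCA value passed 2-fold, at 1.12, with 5 groups in place of 3. Cyp3a25 therefore leaned to the pericentral side in both high fat libraries. In ND the value depended on the ranking, at -0.28 with 5 groups (interval -0.43 to -0.13), -0.29 without P450 landmarks (-0.41 to -0.16), -0.17 with at least 20 landmark UMIs (-0.29 to -0.04) and -0.06 with 3 zones, where the interval included 0. Score ties were ordered by landmark UMIs, and the median score of the ND periportal zone was 0. The first and second of the 5 ND groups differed in depth, with 526911 and 1376681 nuclear-encoded counts in 316 and 315 cells. Cyp3a25 had 1473 and 1130 CPM in them. In hepatocyte-like ND cells it had 1473 CPM under 1000 UMIs and 1104 CPM at 3000 UMIs or more. The part of depth in the ND value from 5 groups was not tested. Cyp3a13 leaned to the periportal side in HFD_HDCA, with a log2 ratio of -0.50 (interval -0.72 to -0.28). Its intervals in HFD (-0.46 to 0.13) and ND (-0.58 to 0.14) included 0. Cyp3a59 had 14 pericentral and 9 periportal counts in HFD_HDCA, 11 and 10 in HFD and 31 and 76 in ND, too few to place it.

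Cells with 1 member were examined for the others. In thinned hepatocyte-like ND cells, Cyp3a25 had 1422 CPM in 1942 cells with a Cyp3a11 UMI and 1097 CPM in 383 cells without one, a log2 ratio of 0.37 (interval 0.16 to 0.59). The same ratio was 0.42 (interval 0.05 to 0.75) in HFD_HDCA and 0.40 (interval -0.34 to 1.0) in HFD. For Cyp3a13 beside Cyp3a11 the intervals included 0 in every library, at 0.51 in HFD_HDCA, 0.13 in HFD and -0.23 in ND. Cells of 1 library are not replicates, and the co-occurrence of Cyp3a11 and Cyp3a25 was weak where it was seen.

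The receptor genes upstream of the family did not have the order of libraries that Cyp3a11 had, and their part in its level was not tested. Nr1i2, the gene of PXR, had 22.3 CPM in HFD_HDCA, 32.7 CPM in HFD and 27.1 CPM in ND, and its HFD over ND ratio of 0.27 had an interval of -0.11 to 0.65. Nr1i3, the gene of CAR, had 114, 87.6 and 66.7 CPM and was thus lowest where Cyp3a11 was highest. As with Cyp3a11, the Nr1i3 level was higher in HFD_HDCA than in HFD. Its pericentral over periportal log2 ratio was 1.78 in HFD_HDCA, 2.06 in HFD and 2.83 in ND, on the same side as Cyp3a11. That of Nr1i2 was -0.12, 0.08 and 0.14, with intervals that included 0. Hnf4a, a nuclear receptor that maintains hepatocyte identity, had 213, 217 and 223 CPM. Nr1h4, the bile acid receptor FXR, had 93.9, 77.4 and 72.3 CPM, and its target Nr0b2, the repressor SHP, had 54.2, 76.6 and 104 CPM. Of 24 measured regulators, 5 were higher and 1 lower in HFD than in ND by 2-fold or more, which is 20.8% and 4.17% of them against 2.85% and 3.53% of all measured genes, and their median log2 ratio was 0.24 against -0.06 over all genes. The lower one was Bcl6, a transcriptional repressor, at 16.4 CPM in HFD_HDCA, 21.2 CPM in HFD and 115 CPM in ND. The higher ones included Cebpb, a liver transcription factor responsive to fasting and inflammation, with a log2 ratio of 2.01. Dbp and Tef, circadian activators of the PAR bZIP class, had ratios of 2.52 and 1.35, and their part in the Cyp3a levels was not tested. In HFD_HDCA over HFD, 0 of 24 reached 2-fold, against 1.63% higher and 1.48% lower among all measured genes, and the median was -0.03.

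The supply side of P450 activity went the other way from Cyp3a11 at 2 genes. Por, the reductase that passes electrons to P450 enzymes, had 148 CPM in HFD_HDCA, 257 CPM in HFD and 71.1 CPM in ND, 3.61-fold higher in HFD than in ND (log2 ratio 1.85, interval 1.67 to 2.04). Alas1, the first and rate-limiting enzyme of haem synthesis, had 277, 428 and 45.1 CPM, 9.47-fold higher in HFD than in ND (3.24, interval 3.03 to 3.47). HFD_HDCA over HFD was -0.80 for Por and -0.63 for Alas1, so both were intermediate in HFD_HDCA. Of 18 measured partners, 2 were higher (11.1%) and 1 lower (5.56%) in HFD than in ND by 2-fold or more, against 2.85% and 3.53% of all measured genes, with a median of 0.02. The lower one was Ppox, a late enzyme of haem synthesis, at -1.09. For HFD_HDCA over HFD, 0 were higher and 1 was lower (5.56%, against 1.48% of all measured genes), the haem-degrading Hmox1, at -1.19.

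Genes that PXR or CAR are known to induce were mixed. By the same 2-fold rule, 4 of 35 measured genes in that list were higher (11.4%) and 9 lower (25.7%) in HFD than in ND, against 2.85% and 3.53% of all measured genes, and the median was 0.17, or -0.044 over the larger set with a count minimum of 20. Of the 9 lower ones, 5 were glutathione transferases, which conjugate reactive compounds. The list itself held many glutathione transferases of the Gsta, Gstm, Gstt and Gstp families, so no enrichment is read from these 5. Gsta1 had 1.90 CPM in HFD_HDCA, 0.536 CPM in HFD (2 counts) and 42.1 CPM in ND, with an HFD over ND ratio of -5.98 (interval -9.35 to -4.42). Gsta2 had 13.5, 22 and 195 CPM (-3.15), and Gstm3 had 6.56, 8.57 and 47.0 CPM (-2.44). Some genes of the Gsta, Gstm, Cyp2a, Cyp2b and Cyp2c families are close copies of each other, and their counts may be uncertain as to the copy. Sequence identities were not computed for these families. Cyp2b9, a CAR-responsive P450, had 205 CPM in HFD_HDCA, 5.09 CPM in HFD and 0.234 CPM in ND (1190, 19 and 1 counts). Like Cyp3a11 it was higher in HFD_HDCA than in HFD, and unlike Cyp3a11 it was lowest in ND. Cyp2a4 had 18.6, 0.268 and 0.702 CPM, from 108, 1 and 3 counts. For HFD_HDCA over HFD, 4 of the 35 were higher (11.4%) and 2 lower (5.71%), against 1.63% and 1.48% of all measured genes, with a median of -0.02.

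Other drug-metabolising P450 genes showed no common direction. Of 17 measured, 2 were higher (11.8%) and 1 lower (5.88%) in HFD than in ND by 2-fold or more, against 2.85% and 3.53% of all measured genes, with a median of -0.02. In HFD_HDCA over HFD 2 were higher and 2 lower (11.8% each), against 1.63% and 1.48% of all measured genes, with a median of 0.04. Cyp2e1, which oxidises ethanol, had 4809 CPM in HFD_HDCA, 4364 CPM in HFD and 1292 CPM in ND. Cyp2c70, which makes the muricholic acids of rodents, had 144, 616 and 563 CPM, a log2 ratio of -2.10 for HFD_HDCA over HFD (interval -2.22 to -1.98). The low level of Cyp3a11 in both high fat libraries was thus not shared by either gene.

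**Figure D4:**
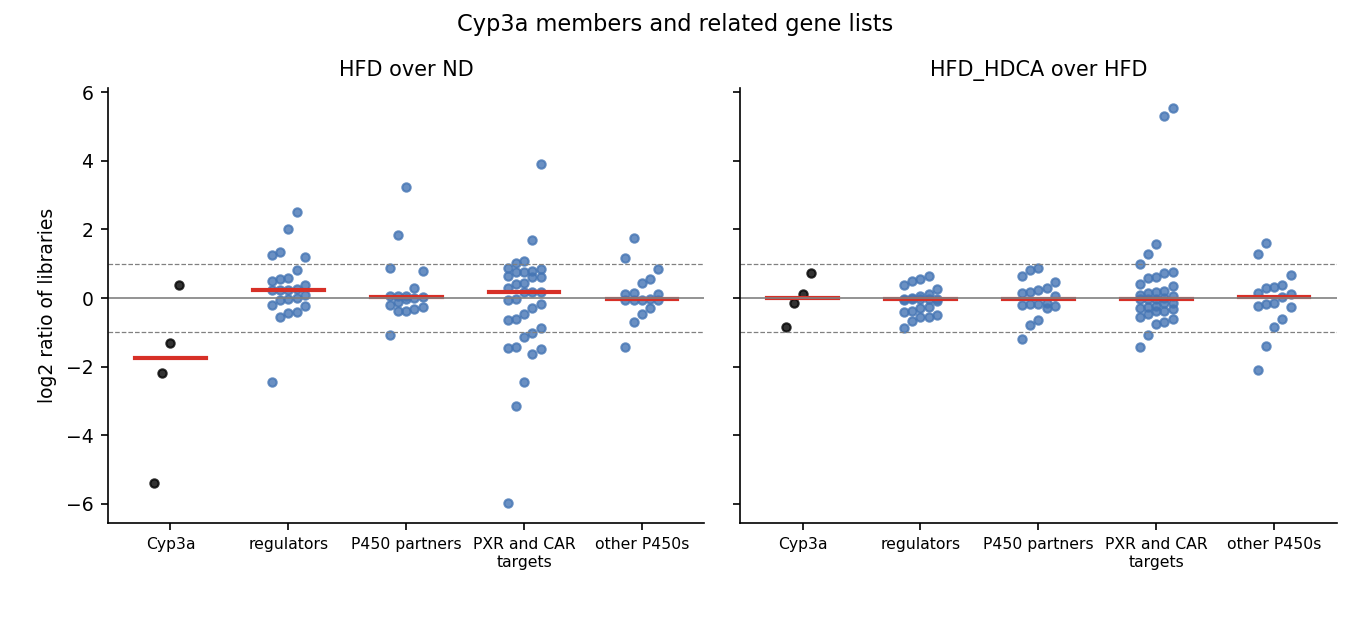
Log2 ratios of HFD over ND (left) and HFD_HDCA over HFD (right) for the 4 Cyp3a members (black) and the measured genes of 4 related lists (blue), 1 point per gene, with the median of each list in red and dashed lines at 2-fold. 3 Cyp3a points lie under the lower dashed line on the left and 0 lie outside them on the right.

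The profiles most like that of Cyp3a11 were sought over 9 sums of library and lobule zone, by the root mean square difference of centred log2(CPM + 1) values among 7507 candidate genes. The closest was Gstm3, at a difference of 2.0, followed by Csad, which makes the taurine used to conjugate bile acids, at 2.19. Then came Gsta1, Tnfaip2, Angptl8, Bcl6, Gsta2 and Asap2, at 2.29 to 2.5. Over the same 9 sums, which share 3 libraries and carry no test, Pearson r with Cyp3a11 was 0.94 for Gstm3, 0.88 for Csad and between 0.71 and 0.83 for the other 6. Cyp3a11 spanned a wider range than each of these genes, and even the nearest profile was far from it on this scale. Gstm3 had 3.41, 4.44 and 12.9 CPM from the periportal to the pericentral zone of HFD_HDCA, 1.40, 7.27 and 19.3 CPM in HFD and 28.7, 30.5 and 103.6 CPM in ND. Angptl8, a regulator of lipoprotein lipase, had its highest zone on the periportal side or in the middle of each library, unlike Cyp3a11. Cyp3a25 lay at 2.81 from Cyp3a11 with r = 0.92 and Cyp3a59 at 2.54 with r = 0.82, while Cyp3a13 lay at 3.61 with r = -0.85.

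**Figure D5:**
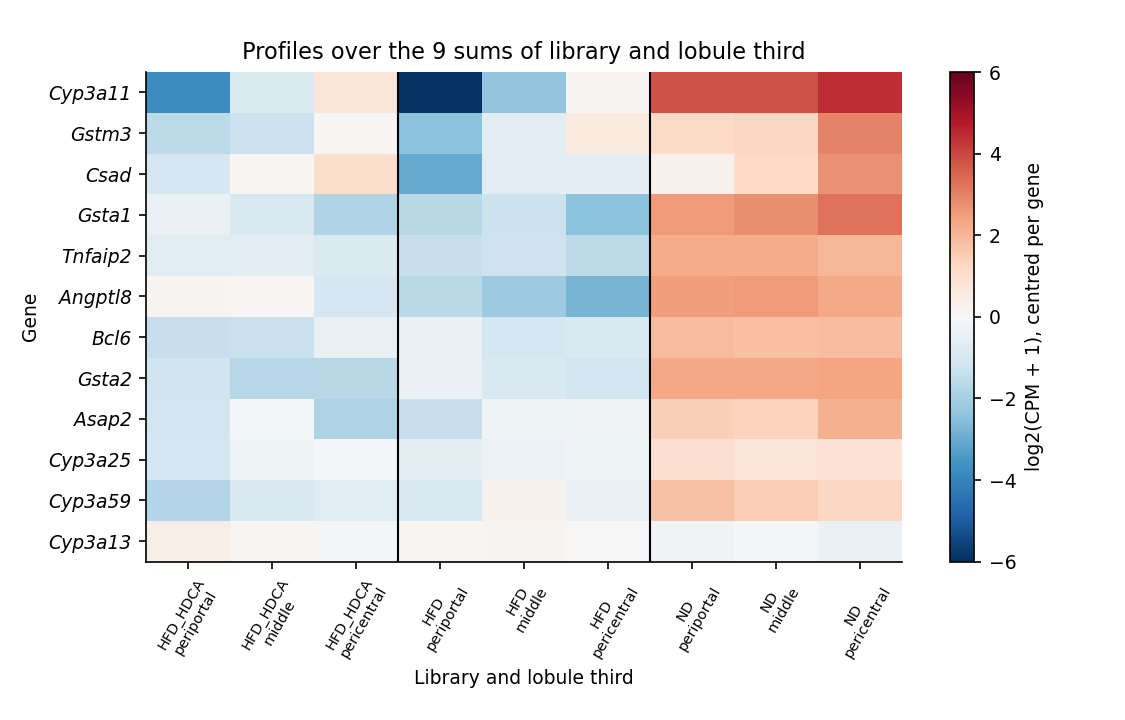
Centred log2(CPM + 1) of Cyp3a11, its 8 nearest genes and the other members (rows) in each library and lobule zone (columns), with red above and blue below the mean of the gene. The Cyp3a11 row runs from its lowest value in the periportal zone of HFD to its highest in the pericentral zone of ND, and Gstm3 and Csad share the rise within each library from the periportal to the pericentral zone except for the middle and pericentral zones of HFD, where Csad is level.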

How the data were processed

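The deposited matrices hold UMI counts per gene and barcode from a droplet 3′ kit. Per the file headers, Cell Ranger 5.0.0 wrote them. Per the submitters' processing notes, reads were placed on mm10. How their barcodes were selected is not given in the sources used here. All else was computed from these counts. Barcodes with at least 200 genes and at most 50% mt- counts were kept. They were clustered together with scanpy 1.11.5 and leidenalg 0.10.2 (scaling to 10000 counts, 2000 variable genes, 30 components, 15 neighbours, resolution 1) and named from marker genes. No doublet caller was run and doublets were not removed.

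Levels are summed counts per 1000000 nuclear-encoded counts with exact Poisson intervals. Ratios have 0.5 added to each count and exact conditional binomial intervals, and shares have exact binomial intervals, all at 95%. Genes whose counts summed to 100 or more were called measured, and a 2-fold ratio was the size rule. A count of 0 was read as up to 3 counts. The ratio and thinning code was tested on simulated data. Software was Python 3.11.15, numpy 2.4.6, scipy 1.17.1, pandas 2.3.3 and biopython 1.88, which aligned sequences.

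The members and 5 gene lists (other Cyp3a genes, regulators, P450 partners, PXR and CAR targets, other P450 genes) were chosen with earlier results of these data known. Named genes were the members, the other Cyp3a genes, up to 4 genes per list with the largest ratios in a comparison, Nr1i2, Nr1i3, Nr1h4, Nr0b2, Hnf4a, Por and Alas1, and the 8 nearest profiles to Cyp3a11. Alternatives varied the count minimum, scaling, cell filters, depth, cell weights and lobule ranking.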

Additional observations from a re-analysis of the deposited data

Results flagged for a closer look

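Some lobule ratios had opposite signs in different libraries, and these differences were not tested. The pericentral over periportal log2 ratio of Cyp3a25 was 0.96 in HFD_HDCA and 0.34 in HFD, against -0.06 in ND, where the counting interval included 0. In ND it was -0.28 with 5 groups, -0.29 without P450 landmarks and -0.17 with at least 20 landmark UMIs, each with an interval under 0. The first of the 5 ND groups held shallower cells on average than the second, and the part of depth in the -0.28 was not tested. The pericentral over periportal ratio of Cyp3a59 was 1.24 in HFD_HDCA and 0.52 in HFD, against -0.49 in ND, and all 3 intervals included 0.

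The HFD_HDCA over HFD ratio also changed sign between lobule zones for 2 genes, again untested. For Cyp3a25 it was -0.48 in the periportal, 0.07 in the middle and 0.13 in the pericentral zone. The periportal interval alone excluded 0. For Cyp3a13 it was 0.28, -0.10 and -0.05 in the same zones, and again the interval excluded 0 in the periportal zone only.

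Barcodes with more than 50% mt- counts were left out of the comparisons. In them Cyp3a13 had 178 CPM in HFD, above the interval of the ND level of 139 CPM (110 to 174 CPM). The HFD interval (142 to 221 CPM) overlapped it, and the log2 ratio of HFD over ND was 0.36 with an interval of -0.10 to 0.82, within counting error. Cyp3a11 had 198, 121 and 6553 CPM in these barcodes of HFD_HDCA, HFD and ND, the same order as in the retained barcodes.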

How the results depend on the processing

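No member's called ratio changed direction under any alternative. Over 10 alternatives, HFD over ND for Cyp3a11 ranged from -5.90 to -5.16 and HFD_HDCA over HFD from 0.57 to 1.17. That ratio passed 2-fold, at 1.17, when each cell was weighted equally. Cyp3a59 passed it, at -1.13, when cells were thinned to 500 UMIs, from only 7 HFD_HDCA and 11 HFD UMIs. Cyp3a25, HFD_HDCA over HFD, which was within 2-fold, came to 0.05 when thinned. The causes were not tested. Among lobule ratios in HFD_HDCA, Cyp3a25 passed 2-fold with 5 ranked groups (1.12) and with at least 20 landmark UMIs (1.14), and Cyp3a59 fell to 0.22 with the score limits of the ND cells. In ND, Cyp3a25 ranged from -0.29 to -0.06. For Cyp3a11 the lobule ratio ranged from 4.59 to 6.33 in HFD_HDCA, from 5.12 to 6.55 in HFD and from 0.43 to 0.70 in ND. The median of PXR and CAR targets, HFD over ND, came to -0.044 with a count minimum of 20.

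Counts of genes past 2-fold depended on the count minimum. Minima of 20, 500 and none left 10833, 3406 and 16064 genes to count. The share of those genes past 2-fold changed as well. It was largest without a minimum in each comparison and direction. With minima of 20, 500 and none, genes higher in HFD over ND numbered 382, 131 and 1378, and lower genes 990, 53 and 3048. For HFD_HDCA over HFD they were 531, 24 and 1376 higher, and 298, 45 and 1419 lower. For HFD_HDCA over ND they were 392, 117 and 1767 higher, and 747, 66 and 2542 lower. Thinned cells left only 4226 genes to count, against 7855 without thinning, so their smaller counts do not by themselves mean a smaller share. They gave 154 lower genes for HFD over ND and 57 higher and 66 lower for HFD_HDCA over HFD. For HFD_HDCA over ND they gave 126 higher and 120 lower.

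No paired analysis was possible because each group has 1 library, and for the same reason no library could be left out in turn. Shares of cells with a UMI rise with depth, and 33 of 48 shares recomputed at other settings lay outside the main interval. Cyp3a59, with 32 counts in HFD_HDCA and 37 in HFD, is limited by depth.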

Other observations

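Within each high fat library, among clusters with at least 50 of its cells, Cyp3a25 was highest in cluster 11, whose leading genes included the nuclear RNAs Malat1 and Neat1 and which was chosen after its values were seen. It had 1130 CPM there in HFD_HDCA (85 counts in 106 cells, interval 903 to 1397) and 1366 CPM in HFD (111 counts in 159 cells, interval 1124 to 1645). The next highest clusters had 614 CPM in HFD_HDCA and 604 CPM in HFD. Cyp3a11 had 146 CPM in that cluster in HFD_HDCA (11 counts, interval 73.0 to 262) and 98.5 CPM in HFD (8 counts, interval 42.5 to 194). These intervals included the 181 and 108 CPM of all hepatocyte-like cells of these libraries. The counts are too few to tell whether Cyp3a11 differed there. ND had 44 cells in the cluster and was not described there.

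2 genes outside the naming rule had profiles close to other members over the 9 sums of library and lobule zone. Ephx1, the microsomal epoxide hydrolase, lay at a root mean square difference of 0.19 from Cyp3a25, and Ces2a, a carboxylesterase, at 0.39 from Cyp3a59. Ephx1 had 78.5 CPM in HFD_HDCA, 80.1 CPM in HFD and 175 CPM in ND. Ces2a had 52.5, 80.6 and 216 CPM.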
